A study of Mus musculus with 6 samples.

Results

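The genes described here write, erase and move marks on chromatin. They were taken from the deposited expression table by symbol, as every row whose name begins with Kdm, Hdac, Sirt, Setd, Chd or Dnmt followed by a digit, or with Kmt2 or Smarc, or is Ezh1, Ezh2, Tet1, Tet2 or Tet3. The rule itself uses no measured value. It found 90 of 44804 rows. Of these, 82 were protein-coding modifier genes, and the other 8 carried a family name only: 4 pseudogenes (Smarca5-ps, Dnmt3l-ps1, Dnmt3a-ps1 and Kdm4dl), 3 antisense transcripts (Dnmt3aos, Dnmt3bos and Kdm6bos) and Chd3os, which the annotation lists as the unrelated coding gene Rnf227.

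The study profiled 6 mouse cells by RNA-seq, pairing in each of mice 1157, 1168 and PDGF1 a cell labelled CTC (circulating tumor cell, shed into the blood) with a cell labelled tumor cell. The sample titles mark the tumor cells as GBM (glioblastoma), and the comparison asks how CTCs differ from cells of the tumor in the same animal. The design text calls all 6 single cells, but the source label says so for the CTCs only. Strain, age, sex, alleles and treatment of the mice are not given by the labels, nor is how either kind of cell was identified or whether "tumor cell" means a marker-checked glioma cell. The messenger RNA of each cell was amplified linearly before sequencing. Each value is an FPKM (fragments per kilobase of transcript, scaled to the mapped fragments of the cell). This unit allows for transcript length when genes are set side by side. How evenly different transcripts were amplified and covered was not tested, so comparisons between genes are approximate.

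DNA in the nucleus is wound on histones, and chemical marks on the histone tails and on the DNA itself set how readily a gene is read. Writers such as the Kmt2, Setd and Ezh methyltransferases and the Dnmt enzymes add methyl groups. Erasers such as the Kdm demethylases, the Hdac and Sirt deacetylases and the Tet dioxygenases take methyl or acetyl groups off. The Chd proteins and most Smarc proteins are remodelers, which use ATP to slide or evict nucleosomes, or subunits of remodeler complexes. In glioma, Polycomb silencing, DNA methylation and SWI/SNF remodeling are among the best studied of these layers, and several of the enzymes are drug targets.

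The 6 cells differed widely in how much of the transcriptome was seen. Values of genes with 1 annotated transcript longer than 2500 bases fell on whole multiples of what 1 fragment is worth (88.9 to 92.2% of low values within 0.15 of a whole number), which put the depth, in units of 1e6 fragments, at about 25.8, 29.7 and 40.5 in the 1157, 1168 and PDGF1 CTCs and 10.9, 53.5 and 39.1 in their tumor cells. Olfactory and vomeronasal receptor genes, which neither cell type should express, gave a background. Their 99th percentile was 0.770, 0.148 and 2.70 FPKM in the 1157, 1168 and PDGF1 CTCs and 1.94, 1.27 and 7.10 FPKM in the tumor cells. Markers of oligodendrocyte progenitors and glioma summed to 566 FPKM in the CTC and 263 FPKM in the tumor cell of mouse 1168, but only to 11.97 and 7.24 FPKM in the CTC and tumor cell of mouse 1157 and 0.562 and 1.98 FPKM in the PDGF1 pair. Of these 10 markers, 10 and 8 reached 1 FPKM in the CTC and tumor cell of mouse 1168, 4 and 4 in the 1157 pair, and 0 and 1 in the PDGF1 pair. Microglia and macrophage markers summed lower in the CTC than in the tumor cell of every mouse. The sums were 4.25 and 11.3 FPKM in mouse 1157, 243 and 2490 FPKM in mouse 1168, and 2.17 and 25.4 FPKM in mouse PDGF1. Leukocyte markers summed higher in the CTC of mice 1157 (13.2 and 7.75 FPKM) and PDGF1 (1.77 and 0.864 FPKM). The part of such markers in differences between CTCs and tumor cells was not tested.

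Detection of the modifiers followed this split. At 1 FPKM or more, 18, 65 and 5 of the 90 rows were seen in the 1157, 1168 and PDGF1 CTCs, against 25, 69 and 20 in their tumor cells. Above the receptor level of the same cell, the counts were 21, 76 and 1 in the CTCs and 11, 66 and 6 in the tumor cells. The single row above that level in the CTC of mouse PDGF1 was the pseudogene Smarca5-ps, so none of the 82 coding modifiers stood above it there. The level is in FPKM, so a long transcript can hold many fragments and still lie under it. In that CTC, Chd6 at 1.72 FPKM corresponds to about 732 fragments and Hdac4 at 1.83 FPKM to about 602. In a single amplified cell, fewer transcripts and poorer recovery of them cannot be told apart.

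In the pair of mouse 1168 the coding modifiers were a well-expressed class. Of the 82, 91.5% were above the receptor level in the CTC and 79.3% in the paired tumor cell, against 56.6% and 50.0% of 17953 named coding genes. Their median was 5.03 FPKM in the CTC and 3.02 FPKM in the tumor cell, where the coding genes as a whole had medians of 0.530 and 1.27 FPKM. Their FPKM summed to 1237 in the CTC and 657 in the paired tumor cell, where all rows of the table summed to 727351 and 615548. Modifier transcripts are long, with a median longest transcript of 5077.5 bases, against 2821 bases for coding genes. Within the 82 genes, length and level were only weakly related in this pair (Spearman 0.0464 in the CTC and -0.125 in the paired tumor cell, over genes of 1 library each). Over all named coding genes the same correlation was 0.139 in the CTC and 0.114 in the paired tumor cell.

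**Figure D1:**
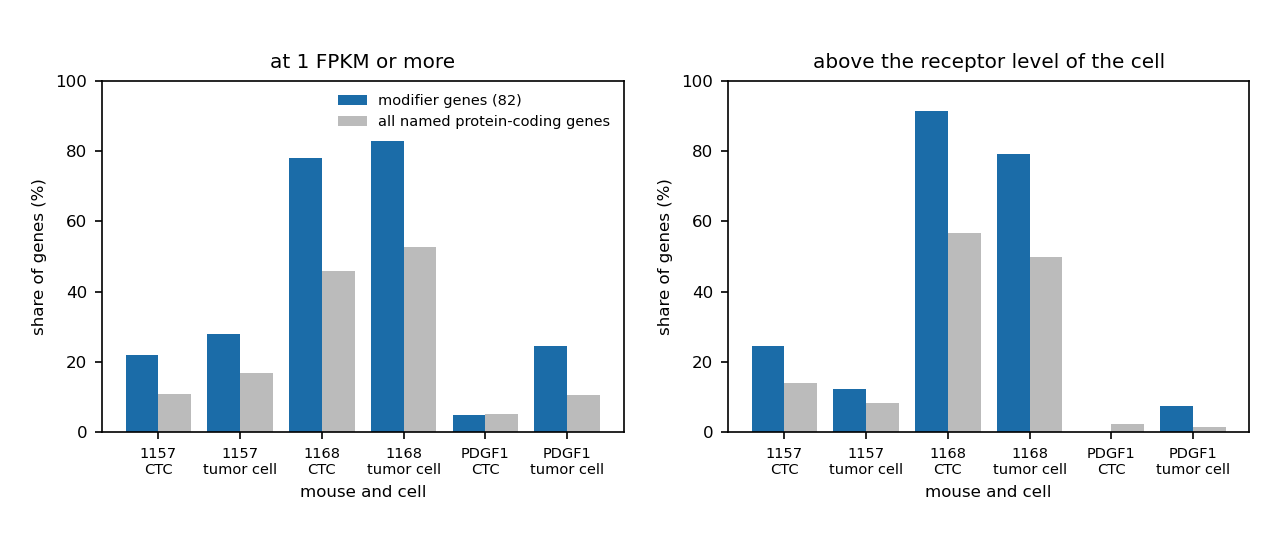
Share of genes (%, y axis) detected in each cell (x axis, the CTC left of the tumor cell of each mouse) at 1 FPKM or more (left) and above the receptor level of the cell (right). Blue bars are the 82 coding modifier genes and grey bars all named protein-coding genes; the blue bar is taller than the grey one in every cell but the CTC of mouse PDGF1.

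**Figure D2:**
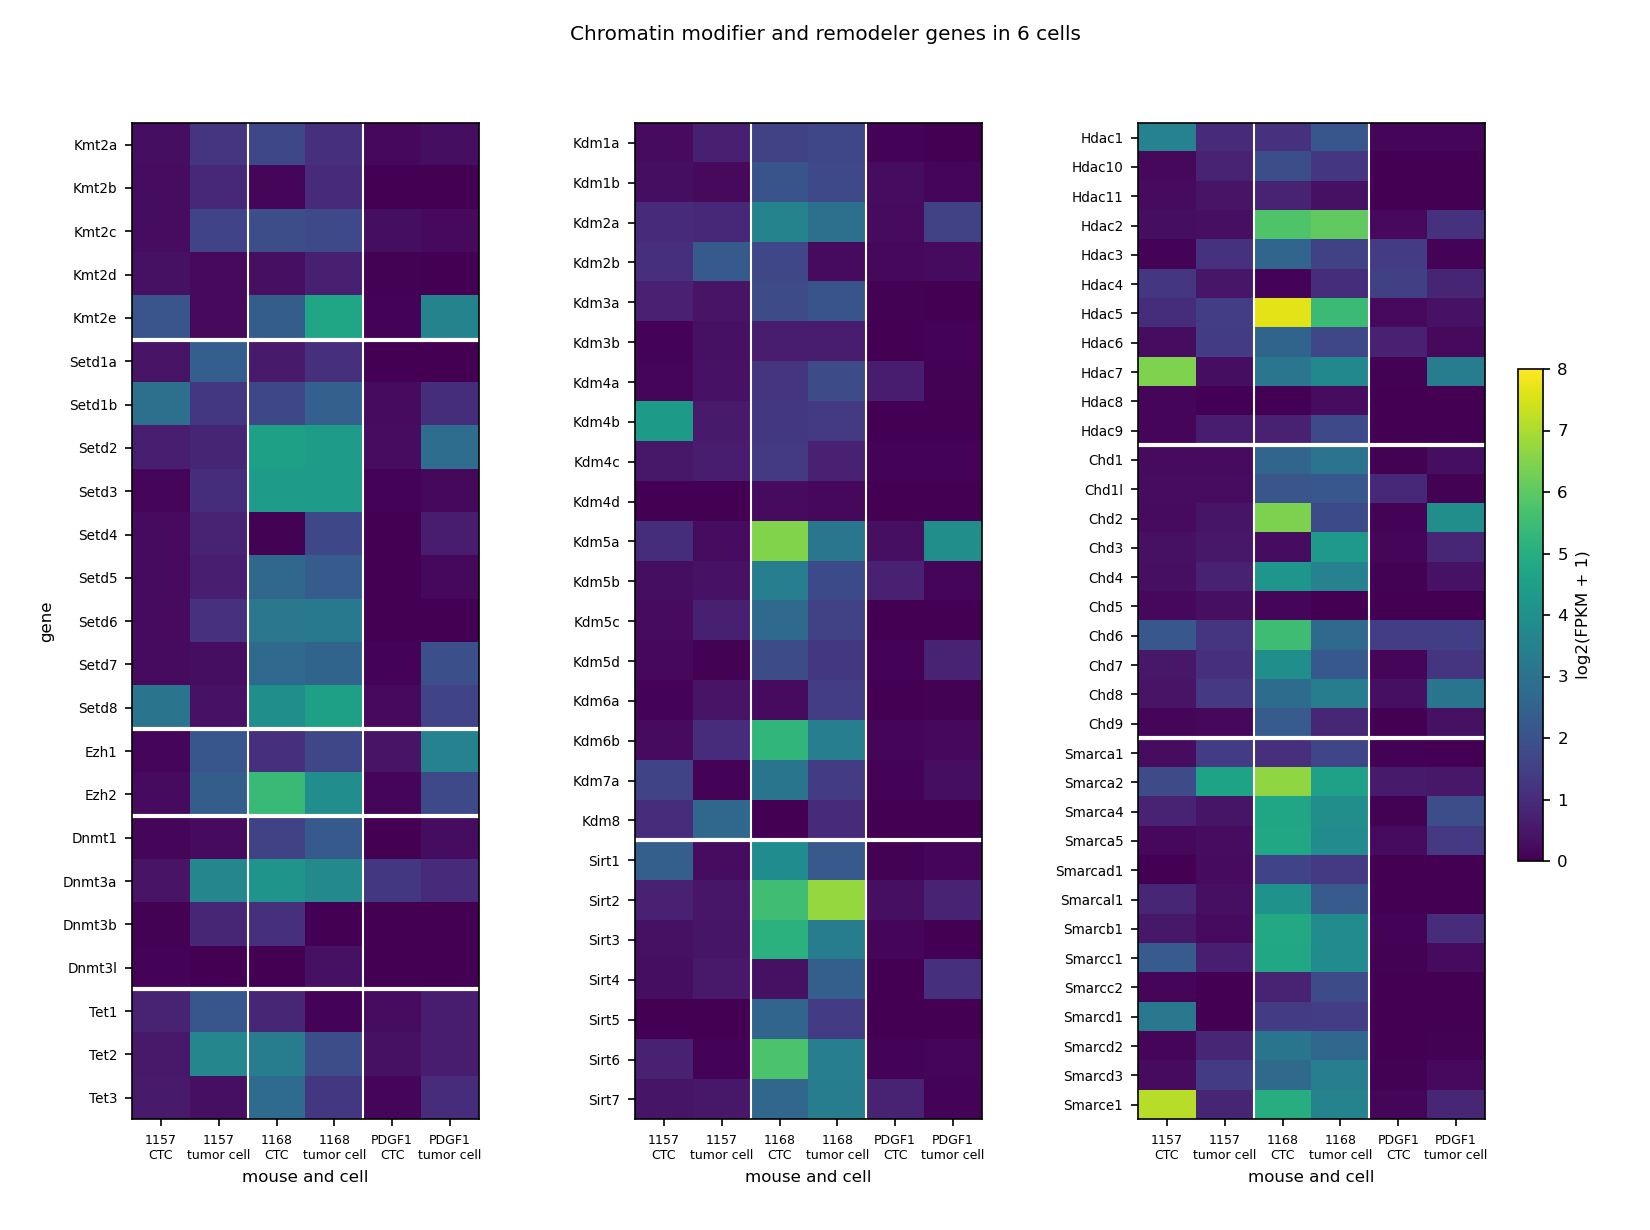
Level of each coding modifier gene (rows) as log2(FPKM + 1) (colour) in each of the 6 cells (columns, CTC left of tumor cell within a mouse), grouped by family. The columns of mouse 1168 are filled almost throughout, while the other 4 columns show isolated bright genes such as Smarce1 and Hdac7 in the CTC of mouse 1157.

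Across the 3 mice, no modifier passed the test. A limma fit on log2(FPKM + 1) over the 4165 rows that reached 1 FPKM in 3 or more of the 6 cells included 41 of the 90 rows, and none had an adjusted p under 0.05, as was so for 0% of all rows (7 rows, or 0.168%, and none of the 41 had an unadjusted p under 0.05). The log2 difference of CTC minus tumor cell was positive for 22 of the 41, with a median of 0.05, against -0.06 over all tested rows. The spread between cells of a group, which includes differences between mice, was large, with a median residual SD of 1.64 log2 units among these 41 rows and 1.88 among all. With the mouse as a block, the median residual SD was 0.946 among the 41 and 0.798 among all. Again none of the 41 passed, against 1 row (0.024%) of the table. In that fit, 217 of the 4165 rows and 2 of the 41 had an unadjusted p under 0.05 by limma. In either fit a difference of several fold in a single gene could go undetected, and the statements below are about measured values in single cells.

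Ezh1 came nearest to a difference shared by all mice. Ezh1 (GRCm38 chr11:101191115-101226463, minus strand) encodes one of the alternative catalytic subunits of Polycomb repressive complex 2, the one known for its place in non-dividing cells. It was at 0.0940, 1.17 and 0.330 FPKM in the 1157, 1168 and PDGF1 CTCs and at 3.44, 2.22 and 10.8 FPKM in their tumor cells. Each of the 3 CTC values lay below each of the 3 tumor cell values, and all 3 tumor cells were above their own receptor level, as was 1 of the CTCs, that of mouse 1168. These levels correspond to roughly 10.2, 146 and 56.2 fragments in the CTCs and 157, 500 and 1775 in the tumor cells. The log2 difference was -1.91 (SE 1.44), which did not pass limma's test (adjusted p = 0.99994; 0.697 with the mouse as a block), and it was negative under every alternative setting that tested it. Scaled so that each cell sums to the same total, the 2 groups of Ezh1 values overlapped, and Chd8 was the 1 of 41 tested modifiers without overlap, where 6.72% of all tested rows had none.

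Among the 41 tested rows, Ezh1 was the only one with no overlap between the groups. Over all tested rows, 1.3% lay wholly lower in CTCs and 0.264% wholly higher. Chd3, Setd4 and Sirt4 also had all CTC values below all tumor cell values, but they were too low in most cells to be tested. Counting every row above 0 in any cell, that made 4 of 90 wholly lower in CTCs, against a background of 2.88%, and none wholly higher, against 0.474%.

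Chd3, a catalytic subunit of the NuRD remodeling and deacetylase complex, was at 0.293, 0.211 and 0.0729 FPKM in the 1157, 1168 and PDGF1 CTCs and at 0.437, 18.6 and 0.823 FPKM in their tumor cells. Only in mouse 1168 was a Chd3 value above the receptor level, in both cells. Setd4, a SET-domain methyltransferase linked in mouse to stem cell quiescence, was at 0.177, 0.0260 and 0 FPKM in the CTCs and 0.6998, 2.29 and 0.540 FPKM in the tumor cells. Sirt4, a mitochondrial sirtuin, was at 0.215, 0.294 and 0.0160 FPKM in the CTCs and 0.464, 4.32 and 1.16 FPKM in the tumor cells. The tumor cell of mouse 1168 was above its receptor level for both genes and the CTC of that mouse for Sirt4 only. The remaining values of Chd3, Setd4 and Sirt4 were under the receptor level of their cell.

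No row differed by at least 1 log2 unit in the same direction in all 3 mice, as was so for 0.336% of tested rows higher in CTCs and 0.72% lower. Counting the sign alone, 12 coding modifiers were lower in the CTC of every mouse (Dnmt1, Hdac9, Ezh1, Chd3, Hdac2, Setd4, Chd1, Smarcd3, Sirt4, Setd6, Kdm6a and Chd8) and 1 was higher (Kdm1b). All rows above 0 in any cell had the same lean, with 12.4% lower in every mouse and 3.48% higher, so 12 and 1 of 90 lie near the background. Of the 41 tested rows, 5 were lower in every mouse and none higher, where 15.3% and 7.39% of all tested rows were. Most of these differences were small in at least 1 mouse: Kdm1b, an eraser of histone H3 methylation, was at 0.222, 3.20 and 0.207 FPKM in the CTCs and 0.157, 2.402 and 0.0705 FPKM in the tumor cells.

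**Figure D3:**
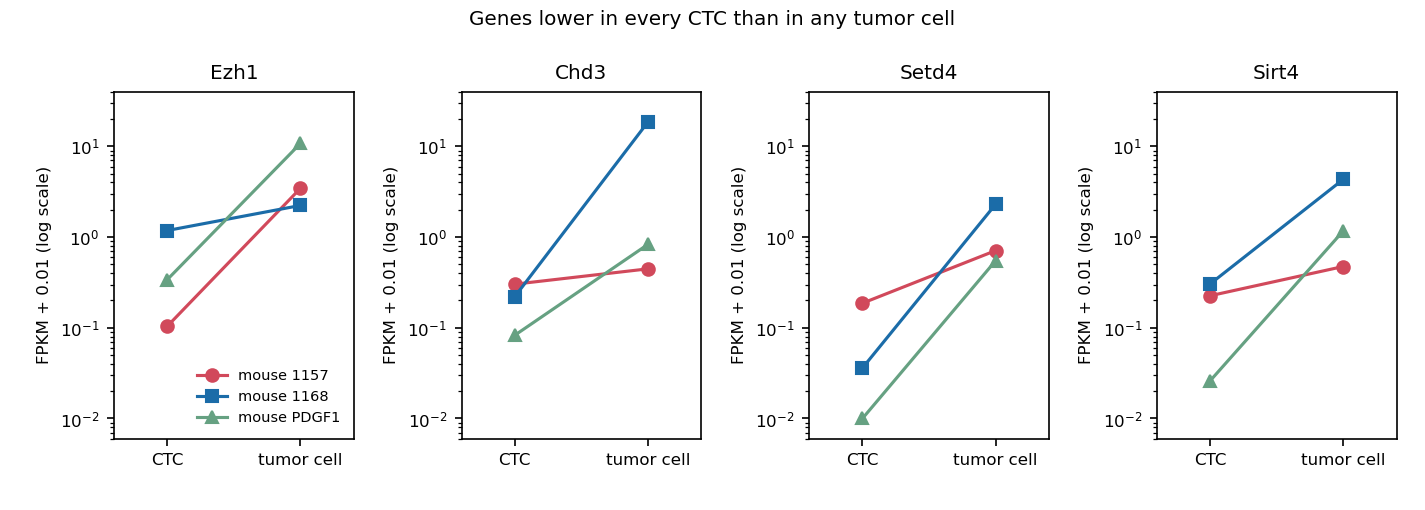
FPKM + 0.01 (y axis, log scale) of the genes whose CTC values all lie below the tumor cell values, 1 point per cell, CTCs left of tumor cells, with cells of a mouse joined. Ezh1 is the only one whose 3 tumor cells all exceed 2 FPKM; for Chd3, Setd4 and Sirt4 the highest tumor cell is that of mouse 1168.

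The pair of mouse 1168 was the only one in which most of the modifiers could be compared. Of the rows found by the rule, 73 reached 1 FPKM in either or both of its 2 cells. Of them, 23 (31.5%) were higher by at least 1 log2 unit in the CTC, where 22.7% of all 12396 rows measured in this pair were, and 8 (10.96%) were lower, where 24.9% of all rows were. Among the 10220 named protein-coding genes measured in the pair, 22.2% were higher and 23.6% lower. The median difference was 0.38, against 0.04 over all rows. These are 1 library against 1 library, with no replicate check and no test, and the counts describe these libraries only. Markers of other cells moved with this contrast: microglia and macrophage markers summed to 243 FPKM in the CTC and 2490 FPKM in the tumor cell (all 10 that were measured lay at least 1 log2 unit lower in the CTC), leukocyte markers to 1.31 and 258 FPKM, and S phase and mitosis genes to 195 and 278 FPKM. Pericyte and fibroblast markers summed to 2.63 FPKM in the CTC and 28.3 FPKM in the tumor cell (4 of 5 measured were lower by at least 1 log2 unit), and platelet markers to 72.2 and 12.8 FPKM, mostly from Itga2b at 68.0 FPKM in the CTC and 6.09 FPKM in the tumor cell. Neural stem markers summed to 2378 FPKM in the CTC and 1076 FPKM in the tumor cell, mostly from Fabp7 at 2346 and 1059 FPKM. Of the 4 measured, 2 were higher by at least 1 log2 unit and 1 lower (Msi1, at 0.217 and 3.51 FPKM). Astrocyte markers summed to 662 FPKM in the CTC and 40.5 FPKM in the tumor cell, mostly from Aldoc at 613 and 30.9 FPKM. Slc1a3 was at 49.3 and 8.94 FPKM, while Gfap and Aqp4 were under 1 FPKM in both cells. In the CTC 2 of the 11 microglia and macrophage markers and 3 of the 9 leukocyte markers were listed at 0, and in the tumor cell none and 1. Their part in the differences below was not tested.

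**Figure D4:**
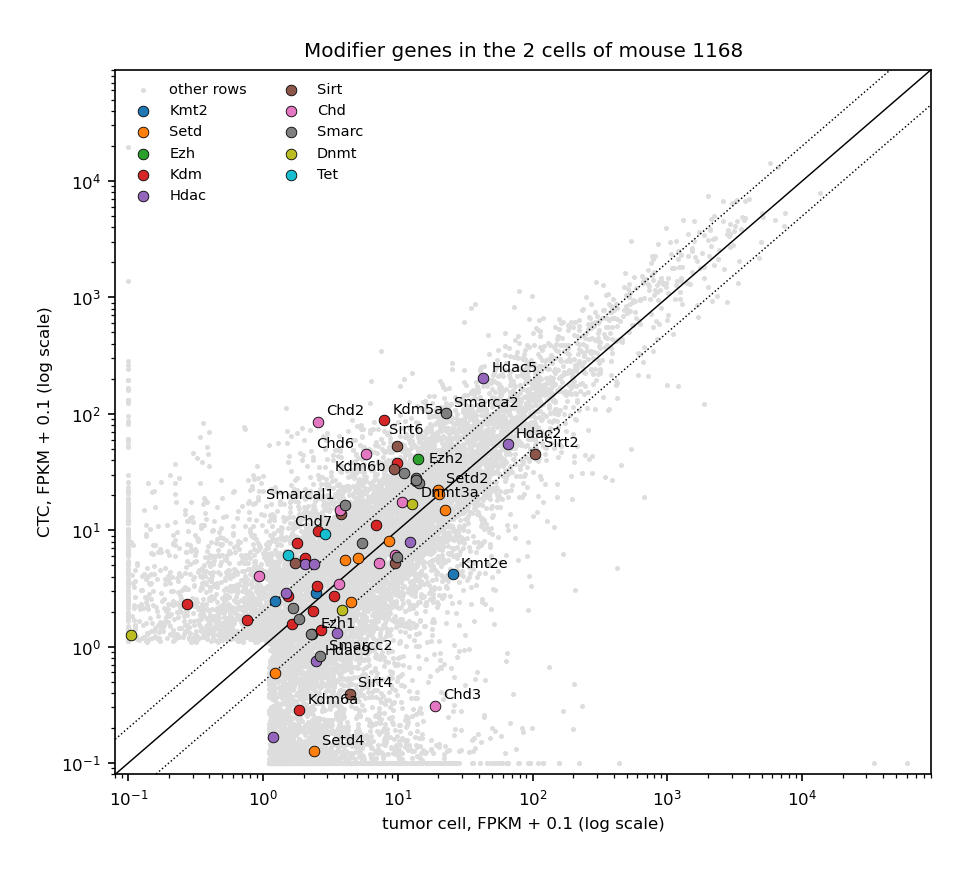
FPKM + 0.1 of each measured row in the CTC (y axis) and the tumor cell (x axis) of mouse 1168, both on log scales; coloured points are the modifiers by family and grey points all other rows. The solid line marks equal values and the dotted lines 2-fold differences; Chd2 and Kdm5a stand far above the lines, and Chd3 and Kmt2e far below.

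Among the writers of histone methylation, the levels of the pair were close except for a few genes. None of the 9 Setd genes was higher in the CTC by 1 log2 unit and only Setd4 was lower, with a family median of -0.06. Over all rows measured in the pair, 22.7% were higher and 24.9% lower. The most abundant Setd genes were Setd2, which places the mark of transcribed gene bodies (22.3 FPKM in the CTC and 19.8 FPKM in the tumor cell), Setd3, an actin histidine methyltransferase (20.4 and 20.03 FPKM), and Setd8, now named Kmt5a, the writer of monomethylated histone H4 (14.8 and 22.4 FPKM). The Kmt2 genes, which encode the mixed-lineage leukemia type of methyltransferase active at promoters and enhancers, were low apart from Kmt2e.

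Kmt2e, a family member that binds methylated histone H3 and has little or no enzyme activity of its own, was at 3.32, 4.09 and 0.0598 FPKM in the 1157, 1168 and PDGF1 CTCs and at 0.153, 25.5 and 10.9 FPKM in their tumor cells. In mice 1168 and PDGF1 the CTC had the lower value, and in mouse 1157 the higher. In mouse 1168 the tumor cell was 6.22-fold above the CTC, and Kmt2e made up 42.8% of the summed FPKM of the 5 Kmt2 genes in the CTC and 83.2% in the paired tumor cell. Kmt2e (chr5:23434441-23504235, plus strand) shares 972 exonic bases with Srpk2 on the opposite strand. Overlap of this kind is common in these families: exons of 38 of the rows overlap another annotated gene, 33 of them on the opposite strand. Srpk2 was at 21.3 FPKM in the CTC and 17.1 FPKM in the tumor cell of this mouse.

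Polycomb's catalytic subunits were split in mouse 1168. Ezh2, the subunit of dividing cells and a long-studied glioma target, was at 40.9 FPKM in the CTC and 14.0 FPKM in the tumor cell, and it made up 97.2% of the summed Ezh1 and Ezh2 in the CTC and 86.3% in the paired tumor cell. In the other mice Ezh2 went the other way: the 1157 and PDGF1 CTCs had 0.179 and 0.104 FPKM and the tumor cells of those mice 4.17 and 2.42 FPKM. The values of both CTCs were under the receptor level of those cells, as was that of the tumor cell of mouse PDGF1. Among other Polycomb genes in mouse 1168, the accessory subunit Jarid2 was at 10.9 FPKM in the CTC and 2.97 FPKM in the tumor cell, and the accessory subunit Mtf2 at 2.36 and 11.8 FPKM.

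The erasers of histone methylation included several of the most unequal genes of mouse 1168. Of 15 measured coding Kdm genes, 10 had a positive difference, where 51.2% of all rows did, and the median was 0.62. By at least 1 log2 unit, 6 were higher (Kdm5a, Kdm6b, Kdm7a, Kdm5b, Kdm2b and Kdm5c) and 1 was lower (Kdm6a). Of all rows measured in the pair, 22.7% were higher by as much and 24.9% lower. Kdm5a, which removes methyl groups from the promoter mark of active genes and has been tied to drug-tolerant tumor cells, was at 1.07, 87.9 and 0.251 FPKM in the 1157, 1168 and PDGF1 CTCs and at 0.211, 7.79 and 14.4 FPKM in their tumor cells. The CTC of mouse 1168 was 11.3-fold above its tumor cell, from about 28530 against 4559 fragments, while in mouse PDGF1 the tumor cell held nearly all of the signal. Kdm6b, an eraser of the Polycomb mark, was at 37.7 FPKM in the CTC and 9.76 FPKM in the tumor cell of mouse 1168. Its X-linked relative Kdm6a was at 0.183 and 1.75 FPKM, so that Kdm6b made up 99.5% of the summed pair in the CTC and 84.8% in the paired tumor cell. Kdm5b was at 9.83 FPKM in the CTC and 2.45 FPKM in the tumor cell, and Kdm7a at 7.72 and 1.70 FPKM.

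Kdm4b, an eraser of heterochromatin methylation, stood out in another cell. It was at 19.4, 1.47 and 0 FPKM in the 1157, 1168 and PDGF1 CTCs and at 0.496, 1.54 and 0 FPKM in their tumor cells. The CTC of mouse 1157 alone was high, and it held 69.2% of the summed Kdm signal of that cell.

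Of the classical deacetylases, Hdac5 and Hdac2 carried most of the signal in mouse 1168. Hdac5 (chr11:102194432-102230166, minus strand), a class IIa enzyme that shuttles between nucleus and cytoplasm, was at 1.05, 203 and 0.139 FPKM in the 1157, 1168 and PDGF1 CTCs and at 1.76, 42.9 and 0.324 FPKM in their tumor cells. In mouse 1168 it was 4.74-fold higher in the CTC, where it was the most abundant of the 82 genes and made up 96.0% of the summed class IIa enzymes, against 73.2% in the tumor cell. Hdac2, a class I enzyme of the NuRD and Sin3 complexes, was at 55.0 FPKM in the CTC and 65.0 FPKM in the tumor cell of mouse 1168. Its close relative Hdac1 was at 1.22 and 3.44 FPKM, so that Hdac2 gave 89.7% of the class I total in the CTC and 92.1% in the paired tumor cell. In mouse 1157 the order was turned round in the CTC, with Hdac1 at 10.8 FPKM and Hdac2 at 0.227 FPKM.

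Hdac7, a class IIa enzyme known from endothelial and lymphoid cells, was at 86.5, 7.83 and 0.0336 FPKM in the 1157, 1168 and PDGF1 CTCs and at 0.236, 12.2 and 9.32 FPKM in their tumor cells. The CTC of mouse 1157 was high and the tumor cell of that mouse was under its receptor level, whereas in mouse PDGF1 the tumor cell was the high one. In the CTC of mouse 1157 this gene alone made up 85.9% of the summed Hdac signal. Hdac9 was at 0.656 FPKM in the CTC and 2.38 FPKM in the tumor cell of mouse 1168, and Hdac4 at 0.0671 and 1.09 FPKM.

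The sirtuins, deacylases that depend on the cofactor NAD, were divided by member in mouse 1168. Of the 7, 4 exceeded their tumor cell level in the CTC by at least 1 log2 unit and 2 were lower by as much. Over all rows measured in that pair, 22.7% were higher and 24.9% lower. Sirt6, a nuclear sirtuin of DNA repair and metabolism, was at 52.6 FPKM in the CTC and 9.79 FPKM in the tumor cell. Mitochondrial Sirt3 was at 33.2 and 9.34 FPKM, Sirt1 at 13.7 and 3.69 FPKM, and mitochondrial Sirt5 at 5.13 and 1.63 FPKM. Sirt2, a largely cytoplasmic deacetylase of tubulin that is abundant in oligodendrocytes, ran the other way at 45.3 FPKM in the CTC and 105 FPKM in the tumor cell, as did Sirt4. The summed sirtuin level differed little, at 155 FPKM in the CTC and 143 FPKM in the tumor cell. Sirt3 shares 342 exonic bases with Psmd13 on the opposite strand, which was at 148 and 130 FPKM in these cells. The part of this overlap in the Sirt3 values was not tested. In the other 4 cells Sirt1 was the only sirtuin above the receptor level, at 4.35 FPKM in the CTC of mouse 1157 and 0.202 FPKM in its tumor cell.

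The Chd remodelers held the widest differences of the pair. Chd2 (chr7:73426638-73541830, minus strand), a remodeler that deposits the histone variant of active genes and is mutated in childhood epilepsy in human, was at 0.175, 85.5 and 0.0592 FPKM in the 1157, 1168 and PDGF1 CTCs and at 0.371, 2.44 and 14.5 FPKM in their tumor cells. The CTC of mouse 1168 was 35.1-fold above its tumor cell, from about 23054 against 1185 fragments, while in mouse PDGF1 the tumor cell was the high one. Chd2 shares 2628 exonic bases with 1810026B05Rik on the same strand, so its reads may include those of that transcript, which is not used here. Chd6 was at 44.8 FPKM in the CTC and 5.72 FPKM in the tumor cell of mouse 1168, and Chd7, the gene of human CHARGE syndrome, at 14.9 and 3.61 FPKM.

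The NuRD ATPases Chd3 and Chd4 divided the pair. Chd4 was at 17.2 FPKM in the CTC and 10.7 FPKM in the tumor cell, and Chd3 at 0.211 and 18.6 FPKM, an 88.3-fold higher value in the tumor cell. Chd4 thus made up 98.2% of the summed Chd3, Chd4 and Chd5 in the CTC and 36.5% in the paired tumor cell. Mta1, another NuRD subunit, was at 7.52 FPKM in the CTC and 20.3 FPKM in the tumor cell. Ncor1, the scaffold of a separate corepressor complex, was at 121 and 29.0 FPKM. Chd8, a relative of Chd7 linked to autism in human, was at 0.342, 6.06 and 0.256 FPKM in the 1157, 1168 and PDGF1 CTCs and 1.53, 9.45 and 7.56 FPKM in their tumor cells.

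**Figure D5:**
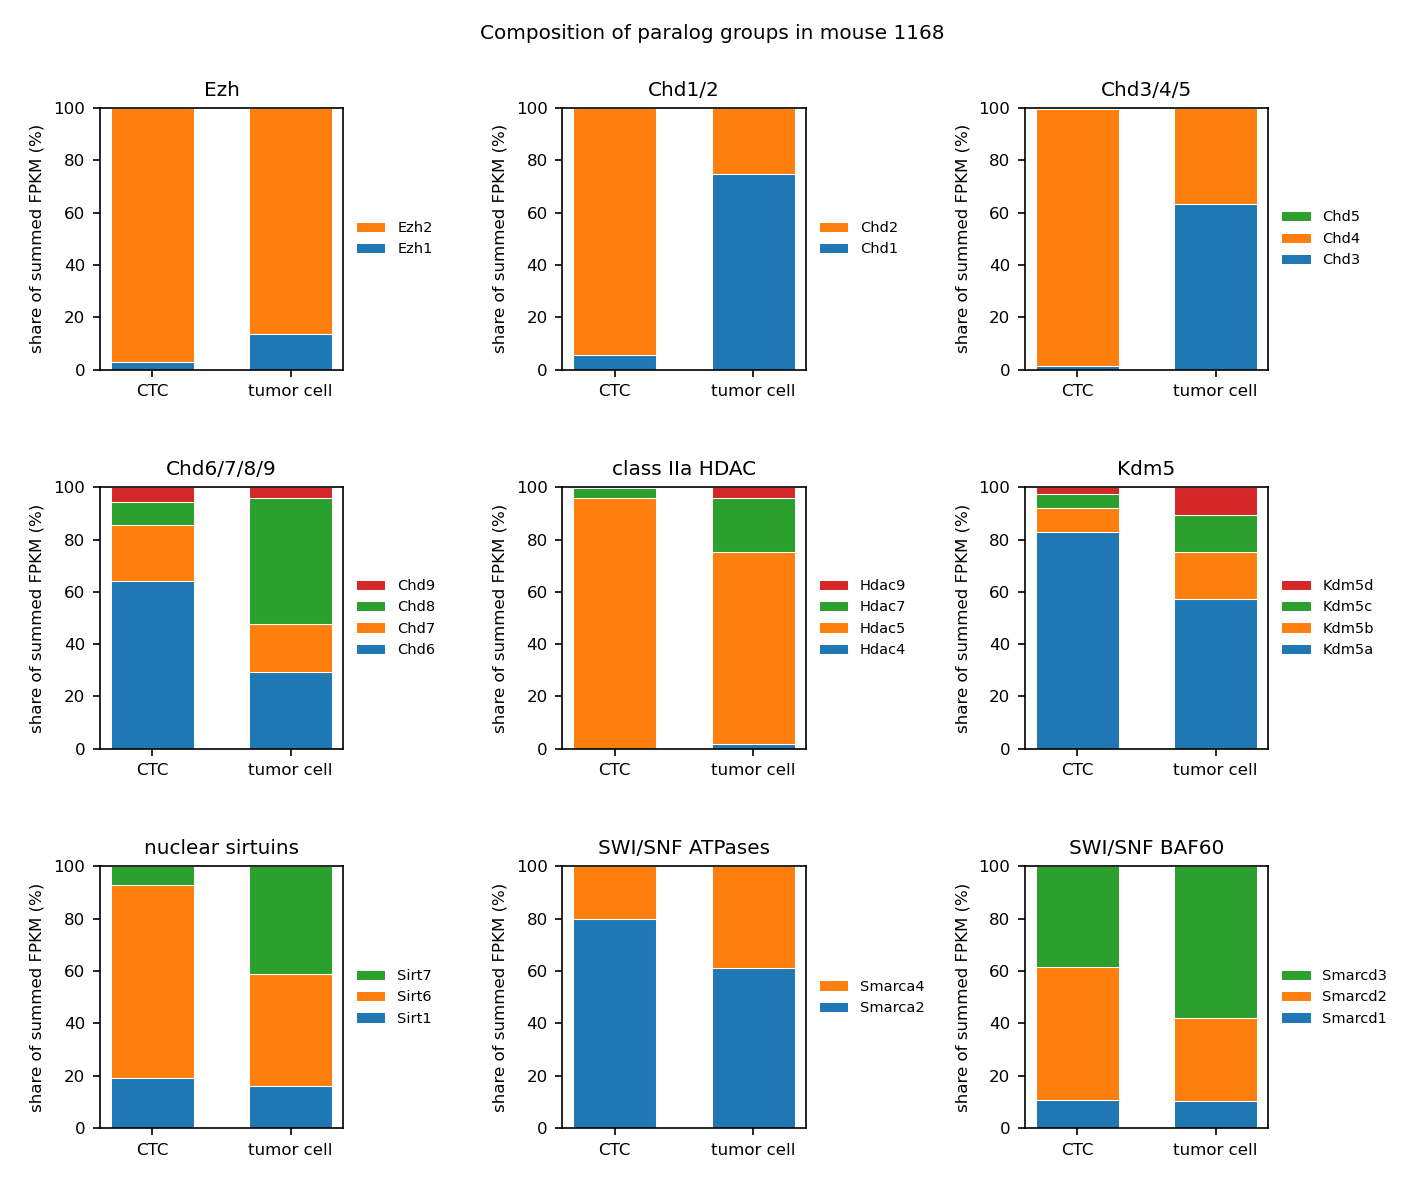
Share (%, y axis) of each paralog in the summed FPKM of its group in the CTC (left bar) and the tumor cell (right bar) of mouse 1168. Chd2 took 94.3% of Chd1 and Chd2 in the CTC and 25.3% in the paired tumor cell, while Ezh2 led its pair and Hdac5 the class IIa enzymes in both cells.

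Among the subunits named Smarc, most of them SWI/SNF (BAF) or ISWI remodelers, all 13 coding genes were measured in mouse 1168. Of these, 3 lay at least 1 log2 unit higher in the CTC and 1 lower, where 22.7% and 24.9% of all rows did. Their median was 0.78. Smarca2, one of the alternative SWI/SNF ATPases, was at 2.64, 101 and 0.497 FPKM in the 1157, 1168 and PDGF1 CTCs and at 24.0, 22.7 and 0.439 FPKM in their tumor cells. In mouse 1168 it was higher in the CTC and in mouse 1157 it was higher in the tumor cell. The other ATPase, Smarca4, was at 25.4 FPKM in the CTC and 14.3 FPKM in the tumor cell of mouse 1168. Core subunits fell just short of 1 log2 unit in that pair: Smarcb1 was at 27.7 FPKM in the CTC and 13.5 FPKM in the tumor cell, Smarcc1 at 26.7 and 13.4 FPKM, and Smarca5, the ISWI ATPase, at 26.3 and 13.5 FPKM. Smarcc2, the relative of Smarcc1, was at 0.730 and 2.56 FPKM. Smarcal1, a DNA-annealing helicase of stalled replication forks, was at 16.3 and 3.96 FPKM.

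Smarce1 (chr11:99209047-99231017, minus strand), a BAF subunit with an HMG domain, was at 139, 30.7 and 0.1096 FPKM in the 1157, 1168 and PDGF1 CTCs and at 0.792, 10.9 and 0.810 FPKM in their tumor cells. The CTCs of mice 1157 and 1168 were above their tumor cells, and in mouse PDGF1 both cells were under the receptor level. This gene alone made up 88.8% of the summed Smarc signal in the CTC of mouse 1157. The log2 difference over the 3 mice was 2.33 (SE 2.86), with an adjusted p of 0.99994 by limma.

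The DNA methylation enzymes were modest in level. Dnmt3a, a de novo methyltransferase, was at 0.348, 16.8 and 1.46 FPKM in the 1157, 1168 and PDGF1 CTCs and at 12.1, 12.7 and 0.965 FPKM in their tumor cells. Only in mouse 1157 did its cells differ by over 1 log2 unit, with the tumor cell higher. Dnmt1, the maintenance enzyme that copies methylation after replication, was at 1.96 FPKM in the CTC and 3.77 FPKM in the tumor cell of mouse 1168, and Dnmt3b at 1.15 and 0.00472 FPKM. Tet2, which oxidises methylcytosine, was at 0.465, 9.26 and 0.284 FPKM in the CTCs and 12.01, 2.79 and 0.513 FPKM in the tumor cells, so its direction differed between mice 1157 and 1168. Tet3 was at 6.02 FPKM in the CTC and 1.43 FPKM in the tumor cell of mouse 1168, and Tet1 at 0.812 and 0.0644 FPKM.

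The highest modifier row of the CTC of mouse PDGF1 was a pseudogene. Smarca5-ps (chr4:145464204-145467420, plus strand) is annotated as a transcribed pseudogene copy of Smarca5 (chr8:80698507-80739497, minus strand). It was at 0.0664, 0.118 and 10.1 FPKM in the 1157, 1168 and PDGF1 CTCs and at 3.71, 0.115 and 0.133 FPKM in their tumor cells. Smarca5 itself was at 0.130, 26.3 and 0.186 FPKM in the CTCs and 0.202, 13.5 and 1.49 FPKM in the tumor cells, so the 2 rows were high in different cells. The transcripts of GENCODE vM21 are identical at 3056 of 3116 aligned bases (98.1%), with identical runs of up to 254 bases, and how the authors divided reads that match both is not stated in the labels; both levels are therefore uncertain. A stretch of 90 bases shows how few positions tell them apart. It is printed 5′ to 3′ on the transcribed strand from GRCm38, at chr4:145465784-145465873 for the pseudogene and, within a coding exon, chr8:80717536-80717625 for the gene, with the differing bases in capitals.
Smarca5-ps: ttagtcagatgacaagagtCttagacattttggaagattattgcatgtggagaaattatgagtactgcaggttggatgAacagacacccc
Smarca5: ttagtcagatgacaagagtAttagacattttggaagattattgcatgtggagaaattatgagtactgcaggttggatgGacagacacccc

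In the other mice few modifiers could be compared. In mouse 1157, 37 rows were measured; 11 (29.7%) were higher in the CTC, where 29% of all rows were, and 16 (43.2%) were lower, where 37.1% of all rows were, and the median was -0.92 against -0.62 over all rows. With the median of all rows set to 0, the counts were 14 higher and 8 lower of 37, where 37% and 15.9% of all rows were. With each cell scaled to the same total they were 10 and 23, where 26% and 61.8% of all rows were. The widest differences were those of Smarce1 and Hdac7, followed by Kdm4b and Smarcd1 (8.29 FPKM in the CTC and listed at 0 in the tumor cell). The widest the other way were Dnmt3a, Tet2 and Smarca2. In mouse PDGF1, 24 rows were measured; 2 (8.33%) were higher in the CTC, where 23.7% of all rows were, and 15 (62.5%) were lower, where 59.9% of all rows were, and the median was -1.21 against -1.18. With that median set to 0, 5 were higher and 7 lower of 24, where 31.1% and 20.2% of all rows were. The 2 higher were Smarca5-ps and Hdac3. Hdac3, a class I deacetylase, was at 1.64 FPKM in the CTC and 0.0450 FPKM in the tumor cell, and both of these values were under the receptor level.

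Of the members, 6 lie on the sex chromosomes. Kdm5d, on the Y chromosome, was at 2.64 FPKM in the CTC and 1.43 FPKM in the tumor cell of mouse 1168, and its X-linked relative Kdm5c at 5.71 and 1.94 FPKM. Over the 4306 bases where the compared transcripts of Kdm5d and Kdm5c align, they share no identical run over 35 bases and are 80.0% identical. Bases outside that alignment were not compared. The X-linked genes Hdac6, Smarca1 and Hdac8 were at 5.00, 1.18 and 0.0159 FPKM in the CTC and 2.28, 2.18 and 0.204 FPKM in the tumor cell. Uty, the Y-linked relative of Kdm6a, was at 7.28 FPKM in the CTC and 0.975 FPKM in the tumor cell, opposite in direction to Kdm6a.

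Partner genes outside the naming rule, from lists chosen with earlier results of these data known, were counted in the same way in mouse 1168. The lists held 113 genes: subunits of chromatin complexes, acetyltransferases, other methyltransferases, readers and 5 sex-linked genes with a copy on the other sex chromosome. Of these, 106 were measured, of which 21 lay at least 1 log2 unit higher in the CTC and 11 lower, with a median of 0.09; over all rows the shares were 22.7% and 24.9%. The histone acetyltransferases had 3 of 9 higher and none lower. Among them, Kat2b was at 42.4 FPKM in the CTC and 2.25 FPKM in the tumor cell, Kat7 at 23.3 and 6.91 FPKM, and Kat8 at 17.7 and 5.82 FPKM. The methyltransferases outside the rule had 5 of 16 higher and 3 lower; Suv420h2, a writer of heterochromatin methylation, was at 13.5 FPKM in the CTC and 2.27 FPKM in the tumor cell. Among SWI/SNF partners, 1 of 15 was higher and 1 lower: Dpf3 was at 5.07 FPKM in the CTC and 0.328 FPKM in the tumor cell, and Actl6a, the subunit of dividing progenitors, at 2.19 and 13.6 FPKM. Atrx, a remodeler lost in many human gliomas, was at 65.8 and 14.7 FPKM. Of the 9 COMPASS subunits shared by the Kmt2 complexes, 1 was higher and 1 lower, and of the 5 acetyl readers 1 was higher and none lower. The Polycomb list had 3 of 12 measured genes higher and 2 lower, the corepressors 3 of 15 and 2, the INO80, SWR1 and ISWI partners 2 of 12 and 1, the DNA methylation partners none of 8 and 1, and the sex-linked list 2 of 5 and none.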

How the data were processed

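Single cells were amplified linearly and sequenced from a stranded library kit, per the labels' protocols. The authors deposited 1 table of FPKM values per gene and cell; STAR 2.4.2a, Cufflinks 2.2.1 and GRCm38 are named in the submitters' processing notes, and neither the use of strand in counting nor the handling of reads that match several genes is stated in the labels. Of 45038 rows, 27 names turned into dates and 211 repeated names were left out. FPKM are not counts, so limma 3.58.1 (R 4.3.3) was fitted to log2(FPKM + 1) with a mean-variance trend, on rows at 1 FPKM or more in 3 of 6 cells, two-sided, with Benjamini-Hochberg adjustment at 0.05. With 3 cells against 3, an exact permutation test cannot give a p below 0.1. Within a mouse, CTC minus tumor cell was counted as different from 1 log2 unit upward among rows at 1 FPKM or more in either cell, with no test.

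The cells of a mouse are paired by the labels' individual identifier; over 4165 rows, deviations from the group means correlated at 0.178, 0.689 and 0.428 within mice 1157, 1168 and PDGF1, and between cells of different mice at -0.622 to 0.422, the highest being the PDGF1 CTC with the 1157 tumor cell. Each group holds 1 cell per mouse, so the p-values of the main fit, which leaves the pairing out, measure the spread between single cells of different mice. With the mouse as a block, they measure the spread of the differences within mice. Depth was estimated from 2101 genes with 1 annotated transcript over 2500 bases; fragment numbers use annotated lengths, are approximate and, without molecular identifiers, are not molecules. Annotation, positions and sequence came from GENCODE vM21, which matched 88 of the 90 symbols, and RefSeq synonyms.

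The members, lists and comparisons were chosen with earlier results of these data known. Named genes were those with non-overlapping groups, the 10 highest and lowest differences in mouse 1168, the 3 highest of each family, those at 10 FPKM or more in mice 1157 or PDGF1, sex-linked members and up to 3 genes per partner list; others named are examples. Alternatives varied the pseudocount, filter, scaling, replicate block and cells left out.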

Additional observations from a re-analysis of the deposited data

How the results depend on the processing

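No modifier row passed limma's test under any setting that tested it, including each cell left out in turn (0 to 0 rows past the threshold). The modifier rows tested changed with the setting, with 41 in the main fit but 15 without the CTC of mouse 1168 and 15 without its tumor cell. The fit cannot tell a small difference from none at this spread. With the mouse as a replicate block, 1 row of the whole table passed, the small nucleolar RNA Snora2b, and no modifier. With that block 2 modifiers had an unadjusted p under 0.05, Ezh1 and Smarce1, with adjusted p of 0.697 and 0.896 by limma. The log2 difference of Ezh1 ranged between -3.65 and -1.30 over the settings that tested it. Scaling each cell to the same total moved the median over all tested rows to -0.79, against -0.06, and left 10 of 41 positive.

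Counts within a mouse moved most often in the sparse cells, but the count of lower rows in mouse 1168 also moved. With a minimum of 5 FPKM, 3 of 44 rows were lower in mouse 1168 (19.6% of all rows), 7 of 11 higher and 4 lower in mouse 1157 (60.7% and 34.7%), and 1 of 8 higher and 7 lower in mouse PDGF1 (34.3% and 61.6%); with the receptor level as the minimum, 1 of 7 was higher and 6 lower in mouse PDGF1 (51.2% and 40.7%). With the median of all rows set to 0, 8 were lower in mouse 1157, and 5 were higher and 7 lower in mouse PDGF1, where Sirt4, Smarca5 and Chd7 turned positive (0.0949, 0.114 and 0.118). Groups that do not overlap numbered 4 over rows above 0, and, as settings chosen after seeing the data, 4 of 21 without mouse 1157 (11.9% of all rows), 0 of 2 without mouse 1168 (29.2%) and 5 of 31, 3 of them higher in CTCs, without mouse PDGF1 (14.1%). Differences of 1 log2 unit in all 3 mice numbered 1 with a pseudocount of 0.1 (Setd4) and 3 with equal totals (Chd3, Setd4 and Sirt4). These counts took in every row found by the rule, tested or not. The share over all rows was not computed under these settings, so the counts cannot be set against a background. At 5 FPKM, 7, 42 and 1 rows were detected in the 1157, 1168 and PDGF1 CTCs and 4, 30 and 7 in their tumor cells; above the receptor level 1 in the CTC of mouse PDGF1 and 11 and 6 in the tumor cells of mice 1157 and PDGF1. The cause of these shifts was not tested. Across all settings, 276 values were classed as unchanged, 42 as moved and 3 as reversed. For a count, unchanged meant near the main count, which takes in counts that stayed at 0. For a difference within a mouse, it meant the same sign and still at least 1 log2 unit. For the fitted difference of Ezh1, it meant the same sign without passing limma's test.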
